A study of Mus musculus with 36 samples.

Results

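The insulin-like growth factor (IGF) system was examined in cultured mouse mesenchymal stem cells (MSCs) from 4 tissues. The 10 genes, listed by name, were the ligands Igf1 and Igf2, the receptors Igf1r and Igf2r, and the binding proteins Igfbp2, Igfbp3, Igfbp4, Igfbp5, Igfbp6 and Igfbp7, out of 24411 genes in the expression tables. All cells came from 8-week-old C57BL6/J mice, and the sources name no genetic change and no treatment of the animals. They were femoral bone marrow MSCs (fBM-MSCs, 3 RNA-seq libraries), vertebral bone marrow MSCs (vBM-MSCs, 2 libraries), adipose tissue-derived MSCs (A-MSCs, 3 libraries) and pulmonary MSCs (P-MSCs, 3 libraries). Another vBM-MSC library, replicate 3, is not analysed here. The study collected all tissues from the same 3 mice, and which library came from which mouse is not given. All cells were seeded in MesenCult medium with MesenPure and a further additive on collagen I-coated dishes and grown for up to 3 passages, and lung and adipose tissue, unlike marrow, were first digested with collagenase. The values therefore describe cultured cells and not the tissues. Open chromatin was measured by ATAC-seq, in which a transposase inserts adaptors into accessible DNA, and each tissue has 1 peak list pooled over its replicates.

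IGF1 and IGF2 are small peptides related to insulin that promote growth and survival of many cell types. The type 1 receptor, Igf1r, is a tyrosine kinase that signals through insulin receptor substrates to the PI3K-Akt and Ras-MAPK branches, whereas Igf2r, the mannose 6-phosphate receptor, takes up IGF2 and lysosomal enzymes and does not signal as a kinase. The IGF-binding proteins (IGFBPs) hold IGFs outside the cell and can limit or prolong their action, and proteases such as pregnancy-associated plasma protein A release the ligand. IGFs and several IGFBPs are made by stromal cells, including those of bone marrow and bone.

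Total expected counts per library ranged from 19569650 to 40517739. The 4 MSC marker genes (Itgb1, Cd44, Ly6a and Vcam1) were at 1 TPM (a level scaled for transcript length and depth) or more in every library, with a summed level of 983 to 2336 TPM. Ptprc, the pan-leukocyte gene, was at 0.35 TPM or less, and Epcam, an epithelial gene, at 0.41 TPM or less. Osteoblast markers (Bglap, Ibsp, Sp7, Alpl and Runx2) summed to 425, 647 and 2325 TPM in fBM-MSC replicates 1, 2 and 3 and to 37.8 and 486 TPM in vBM-MSC replicates 1 and 2, against 2.39 to 5.67 TPM in the A-MSC and P-MSC libraries. Mesothelial markers summed to 47.6 to 62.9 TPM in the A-MSCs and P-MSCs and to 1.84 to 12.3 TPM in bone marrow MSCs. All 5 mesothelial genes were at 1 TPM or more in each A-MSC library but 2 of 5 in each P-MSC library, mostly Krt19. Adipocyte markers summed to 22.0 to 64.2 TPM in bone marrow MSCs, 42.8 to 158 TPM in A-MSCs and 2.68 to 3.84 TPM in P-MSCs, mostly from Fabp4, with 1 to 3 of 5 genes at 1 TPM or more in any library. The macrophage and haematopoietic list summed to 40.5 to 52.1 TPM in fBM-MSCs and 24.4 and 45.2 TPM in vBM-MSCs against 17.7 to 27.1 TPM in A-MSCs and at most 16.9 TPM in P-MSCs, but 3 of its 6 genes were at 1 TPM or more in each bone marrow library and 4 of 6 in each other library. The endothelial list summed to 80.2, 72.8 and 10.3 TPM in fBM-MSC replicates 1, 2 and 3 and to 4.24 to 56.5 TPM elsewhere. In those 3 libraries 2, 1 and 1 of its 6 genes were at 1 TPM or more, against 1 to 3 elsewhere. Nearly all of the sum in those 3 came from Cd34. Cd34 was higher in bone marrow than in non-bone marrow MSCs (log2 fold change 3.43). Cdh5 (−6.24), Kdr (−3.45) and Emcn (−8.50) were lower there, Tek did not differ past the threshold, and Pecam1 was not tested. The epithelial list summed to at most 3.32 TPM. The osteoblast sums differed by over 5-fold among libraries of each bone marrow tissue, and the part of these marker differences in the results below was not tested. Replicate 3 of the fBM-MSCs correlated with replicates 1 and 2 at r = 0.971 and 0.979 over 12509 genes on the log2(TPM + 1) scale, and the 2 vBM-MSC libraries at 0.979, whereas A-MSC and P-MSC pairs were at 0.989 or above.

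Of the 10 genes, 9 had enough counts to be tested, and 8 of these 9 differed among the 4 tissues, where 60.6% of all 12509 tested genes did (edgeR quasi-likelihood test, adjusted p under 0.05). Igfbp6 did not pass (adjusted p = 0.106), and Igf2 was below the filter. In bone marrow MSCs compared with non-bone marrow MSCs, Igfbp2, Igfbp4, Igfbp5 and Igfbp7 were higher, which is 4 of 9 where 24.8% of all genes were higher. Of these 4, Igfbp5 had enough counts to be tested only through its bone marrow libraries. Igf1r alone was lower, 1 of 9 where 22.4% of all genes were lower. The median log2 fold change of the 9 genes was 0.74, and that of all genes 0.03. In these bulk samples, fewer cells expressing a gene and less RNA per cell cannot be told apart.

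**Figure D1:**
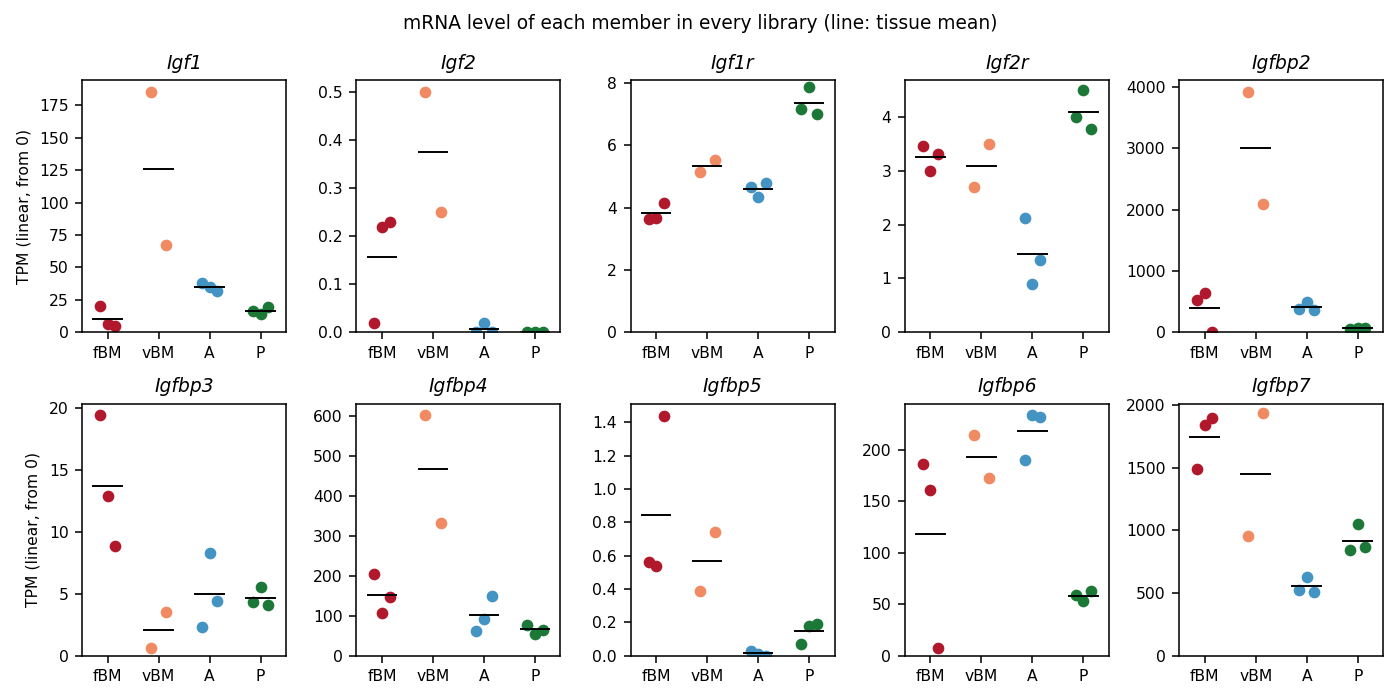
Level of each of the 10 genes in TPM (linear axis from 0, a scale of its own in each panel) in each of the 11 libraries, by tissue (fBM, vBM, A, P), with a line at the tissue mean. Igfbp7 and Igfbp2 reach 1942 and 3914 TPM, while Igf2 and Igfbp5 stay under 1.5 TPM.

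Igf1, the main IGF of postnatal life, was most abundant in vBM-MSCs. Its level was 185 and 67.0 TPM in the vBM-MSC libraries, 38.1, 34.6 and 31.6 TPM in the A-MSCs, 16.4, 14.0 and 19.1 TPM in the P-MSCs, and 20.4, 6.11 and 4.78 TPM in the fBM-MSCs. Both vBM-MSC libraries lay above all 9 others, the A-MSCs were next, and the fBM-MSC and P-MSC ranges overlapped. The 2 bone marrow tissues thus held the highest and the lowest mean of this ligand. The library with the most Igf1, vBM-MSC replicate 1, had the lowest osteoblast sum of the bone marrow libraries (37.8 TPM), and that with the least, fBM-MSC replicate 3, had the highest (2325 TPM), and the part of this was not tested. The difference between fBM-MSCs and vBM-MSCs was a log2 fold change of −3.67 ± 0.59 (SE) for fBM-MSCs minus vBM-MSCs (adjusted p = 0.00266), and this call was made in each of the 11 fits that left out 1 library, with sizes from −4.67 to −2.65. In all, 4 of the 9 tested genes differed between these 2 tissues, where 12.8% of all genes did. vBM-MSCs also exceeded P-MSCs, by a log2 fold change of 3.16 ± 0.58 (adjusted p = 0.00128).

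The excess of Igf1 in vBM-MSCs over A-MSCs (log2 fold change 1.995 ± 0.56, adjusted p = 0.0229) did not pass without vBM-MSC replicate 1 (0.97, adjusted p = 0.278) or without any one of the 3 A-MSC libraries (adjusted p up to 0.0690). fBM-MSCs were below A-MSCs (−1.68 ± 0.52, adjusted p = 0.0240), a call that ended without fBM-MSC replicate 2 or 3 or A-MSC replicate 1 or 2 (adjusted p = 0.0526 to 0.0854). A-MSCs and P-MSCs did not differ past the threshold (1.168, 95% interval 0.04 to 2.29), except without fBM-MSC replicate 1 (adjusted p = 0.0160). The same omission brought fBM-MSCs below P-MSCs (−1.51, adjusted p = 0.00686), which with all libraries did not pass (−0.51 ± 0.51, adjusted p = 0.440). Averaged over bone marrow, Igf1 did not pass (0.74 ± 0.38, adjusted p = 0.127), although it did without fBM-MSC replicate 3 (0.93, adjusted p = 0.0400). Over the 11 fits that left out 1 library, the size ranged from 0.23 to 1.04, the highest without vBM-MSC replicate 2. Igf1 has 5 curated transcripts, and its mean isoform length as estimated by RSEM ranged from 5359 bases in an A-MSC library to 6375 bases in a vBM-MSC library, a length that enters the TPM.

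Igf1 spans 10:87858265-87937047 on the plus strand of GRCm38 (78.8 kb), with 12 accessible sites in the gene or within 20 kb of it. A site is a group of summits with −log10 q of at least 7, each within 250 bases of the next, in any tissue. Of the 12 sites, 9 were open in vBM-MSCs, 8 in A-MSCs, 7 in P-MSCs and 4 in fBM-MSCs. Each list is 1 pooled sample, so these counts have no replicate error. The highest of them, in an intron 19.1 kb after the nearest start, was open in all 4 tissues, with a fold enrichment over the genome-wide background of 32.7 for A-MSCs, 25.8 for P-MSCs, 22.1 for vBM-MSCs and 17.3 for fBM-MSCs. A second intronic site, 11.3 kb after the start, passed the threshold in vBM-MSCs only, at 6.99-fold, and P-MSCs had a weaker summit there of 4.78-fold. Both are shown because they are the strongest site of the gene and the strongest of those that passed in vBM-MSCs alone. They are plus-strand sequences of 100 bases on each side of the summit, with AP-1 letters (TGANTCA) and RUNX letters (TGTGGT) on either strand in capitals.
Igf1 shared intronic site, chr10:87880082-87880282: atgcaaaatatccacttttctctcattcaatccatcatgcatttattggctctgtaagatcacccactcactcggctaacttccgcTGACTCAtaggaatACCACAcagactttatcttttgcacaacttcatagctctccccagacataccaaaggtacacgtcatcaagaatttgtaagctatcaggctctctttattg
Igf1 vBM-MSC intronic site, chr10:87872326-87872526: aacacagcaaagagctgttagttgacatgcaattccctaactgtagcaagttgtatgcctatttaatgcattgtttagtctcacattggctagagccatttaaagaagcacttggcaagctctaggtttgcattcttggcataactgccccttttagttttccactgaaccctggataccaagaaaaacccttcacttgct
The shared site holds 1 AP-1 and 1 RUNX match, which do not overlap, and the vBM-MSC site holds neither. Of all 103643 sites in the 4 lists, 31.8% hold the AP-1 letters and 20.2% the RUNX letters in a window of the same length, so these matches are a description only.

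Igf2, the fetal growth factor, was barely transcribed in any of the cultures. Its expected counts were 1, 17 and 21 in the fBM-MSCs and 35 and 21 in the vBM-MSCs, at most 0.50 TPM. In the A-MSCs they were 0, 2 and 0, and in the 3 P-MSC libraries 0. All 5 bone marrow libraries therefore had at least 1 count, and only 1 of the 6 others did. A count of 0 allows up to 3 counts, or 0.0740 to 0.0965 CPM in the P-MSC libraries, where the limit covers counting error only. H19, the noncoding RNA expressed next to Igf2, was likewise low, at 0, 10 and 24 counts in the fBM-MSCs, 29 and 65 in the vBM-MSCs, 4, 0 and 0 in the A-MSCs and 0 in the P-MSCs. Igf2os, which overlaps Igf2 on the other strand, was at 0 in every library. Igf2 lies at 7:142650768-142666816 on the minus strand. A summit at base −648 relative to one of its 4 starts just passed the threshold in A-MSCs and P-MSCs, at 5.52-fold in each, and not in the bone marrow MSCs.

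The signalling receptor Igf1r had a narrow range. It was at 3.63, 3.67 and 4.15 TPM in the fBM-MSCs, 5.16 and 5.52 TPM in the vBM-MSCs, 4.65, 4.33 and 4.79 TPM in the A-MSCs, and 7.16, 7.88 and 7.01 TPM in the P-MSCs. The 4 ranges did not overlap, in the order P-MSCs, vBM-MSCs, A-MSCs and fBM-MSCs. Its coefficient of variation within a tissue was 4.77% to 7.58%. Bone marrow MSCs were lower by a log2 fold change of −0.36 ± 0.08 (adjusted p = 0.00374), which passed in every alternative fit. fBM-MSCs were below P-MSCs (−0.82 ± 0.11, adjusted p = 9.62e-05), as were A-MSCs (−0.49 ± 0.11, adjusted p = 0.00598). vBM-MSCs and A-MSCs, neighbours in the order, did not pass (0.11, 95% interval −0.16 to 0.37). fBM-MSCs were also below vBM-MSCs (−0.44 ± 0.12, adjusted p = 0.0335), a call that ended in 6 of the 11 fits without 1 library, namely fBM-MSC replicate 1 or 2, either vBM-MSC library, or P-MSC replicate 1 or 3 (adjusted p = 0.0516 to 0.155). The other neighbours passed narrowly, with P-MSCs above vBM-MSCs (adjusted p = 0.0283) and A-MSCs above fBM-MSCs (adjusted p = 0.0287), and each of these calls ended without any of 4 libraries (adjusted p up to 0.113 and 0.0997). By limma-trend on log2(TPM + 1), none of these 3 narrow pair calls of Igf1r passed (adjusted p = 0.123, 0.0710 and 0.254 for fBM-MSCs with vBM-MSCs, vBM-MSCs with P-MSCs and fBM-MSCs with A-MSCs). The libraries for P-MSCs and vBM-MSCs were both vBM-MSC libraries and P-MSC replicates 1 and 2, and for A-MSCs and fBM-MSCs they were fBM-MSC replicates 1 and 2 and A-MSC replicates 1 and 3.

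Igf1r is the longest of these genes (7:67952257-68233668, plus strand, 281 kb) and had the most accessible sites, 32, of which 10 were open in all tissues and 10 in 1 tissue only. Its promoter was open in every tissue, with the highest summit within 1 kb of the start at 15.8-fold in fBM-MSCs, 12.9-fold in vBM-MSCs, 15.1-fold in A-MSCs and 10.3-fold in P-MSCs. P-MSCs, where the mRNA was highest, thus had the lowest promoter enrichment of the 4 pooled lists. The strongest site of all 10 genes was also in an intron of Igf1r, 69.7 kb after the start, at 43.4-fold in P-MSCs, 39.0-fold in fBM-MSCs, 34.95-fold in A-MSCs and 32.8-fold in vBM-MSCs.

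Igf2r, the clearance receptor, was lowest in A-MSCs. It stood at 2.13, 0.89 and 1.34 TPM there, against 3.47, 3.01 and 3.32 TPM in fBM-MSCs, 2.70 and 3.5 TPM in vBM-MSCs, and 4.01, 4.51 and 3.79 TPM in P-MSCs. All 3 A-MSC libraries were below all others, and the P-MSCs were above all others. A-MSCs were below P-MSCs (−1.32 ± 0.25, adjusted p = 0.00275) and below fBM-MSCs (a log2 fold change of 1.11 ± 0.25 for fBM-MSCs minus A-MSCs, adjusted p = 0.00480). The excess of vBM-MSCs over A-MSCs (0.98 ± 0.27, adjusted p = 0.0224) did not pass without vBM-MSC replicate 2 or A-MSC replicate 3 (adjusted p = 0.104 and 0.0644). Bone marrow against non-bone marrow did not pass (0.39 ± 0.19, adjusted p = 0.106), except without A-MSC replicate 1 (0.56, adjusted p = 0.00902). The ratio of Igf2r to Igf1r TPM was 0.800 to 0.956 in fBM-MSCs, 0.523 to 0.634 in vBM-MSCs, 0.541 to 0.572 in P-MSCs and 0.206 to 0.458 in A-MSCs.

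Igf2r (17:12682406-12769706, minus strand) is overlapped by the antisense RNA Airn, and the library kit does not mark strand, so reads of the 2 genes cannot be told apart where they overlap. Airn was listed at up to 3.13 TPM and 70 expected counts, against 219 to 1000 counts for Igf2r. The promoter of Igf2r passed the threshold in both bone marrow lists, at 5.89-fold in each, and in neither A-MSCs nor P-MSCs. The strongest site of all 10 genes that passed in 1 tissue only was also in Igf2r, in an intron 80.8 kb after the start, at 12.9-fold in fBM-MSCs against 4.78-fold in vBM-MSCs, 4.78-fold in A-MSCs and 5.15-fold in P-MSCs. Its sequence, with the same motifs searched and no match, is shown as the highest site of the 10 genes that passed in 1 tissue only.
Igf2r fBM-MSC intronic site, chr17:12688796-12688996: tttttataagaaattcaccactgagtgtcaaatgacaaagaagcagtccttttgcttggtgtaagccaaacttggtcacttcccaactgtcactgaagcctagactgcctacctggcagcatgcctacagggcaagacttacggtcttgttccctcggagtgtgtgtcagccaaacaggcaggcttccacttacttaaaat

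The 6 binding proteins spanned over 3 orders of magnitude in mRNA level. Their summed level was 5685 and 4543 TPM in the vBM-MSCs, 2432, 2759 and 2073 TPM in the fBM-MSCs, 1147, 1458 and 1260 TPM in the A-MSCs, and 1042, 1225 and 1067 TPM in the P-MSCs. Each bone marrow library lay above each non-bone marrow library. Per IGF ligand transcript, the sum of the 6 was 30.1 to 87.6 times that of Igf1 and Igf2 together in the vBM-MSCs, A-MSCs and P-MSCs and 119 to 436 times in the fBM-MSCs.

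Make-up differed among tissues, with Igfbp7 and Igfbp2 accounting for most of the sum. Igfbp7 was 82.6 ± 2.73% (SD, n = 3) of it in P-MSCs, 73.2 ± 16.1% (n = 3) in fBM-MSCs, 42.9 ± 2.56% (n = 3) in A-MSCs and 29.8 ± 18.4% (n = 2) in vBM-MSCs. Igfbp2 was 57.4 ± 16.1% (n = 2) in vBM-MSCs, 31.9 ± 2.47% (n = 3) in A-MSCs, 15.1 ± 12.7% (n = 3) in fBM-MSCs and 5.69 ± 0.854% (n = 3) in P-MSCs. Igfbp6 was 17.0 ± 1.23% in A-MSCs and 3.79 to 5.30% on average in the other tissues, and Igfbp4 6.01 to 8.96% on average in all 4. Igfbp3 and Igfbp5 together stayed under 1% in every library. The Igfbp2 share was 21.8% and 23.1% in fBM-MSC replicates 1 and 2 but 0.475% in replicate 3, and it differed between the vBM-MSC libraries (68.9% and 46.0%).

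**Figure D2:**
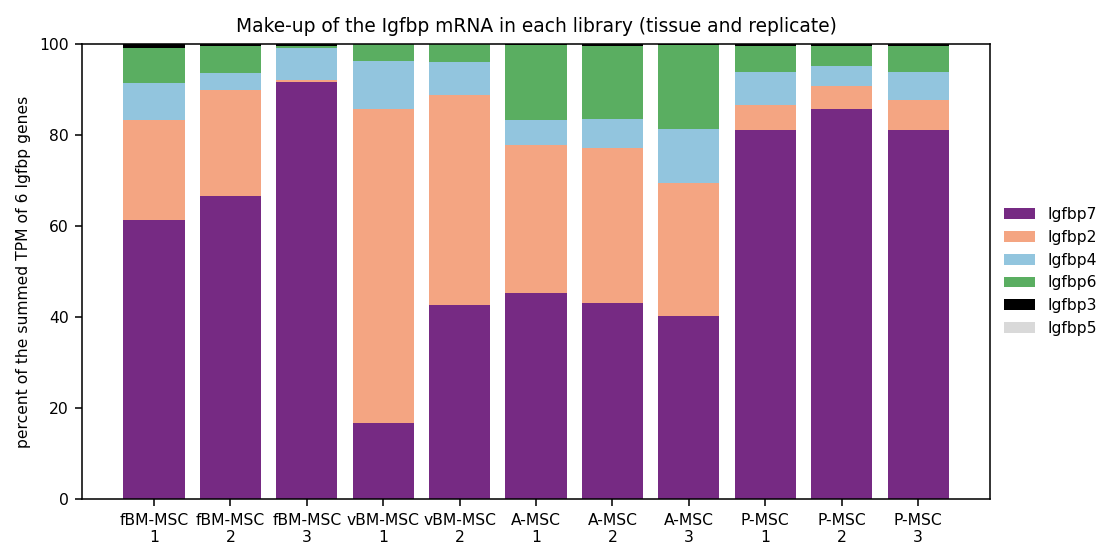
Share of each of the 6 Igfbp genes in their summed TPM, in percent, for each library. Igfbp7 makes up 81.0 to 85.7% in the P-MSCs, and Igfbp2 makes up 68.9% and 46.0% in the vBM-MSCs but 0.475% in fBM-MSC replicate 3.

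Igfbp2, a secreted IGFBP with a cell-binding motif, ranged from 9.85 to 3914 TPM. It reached 3914 and 2091 TPM in vBM-MSCs, where it was the 19th and 59th most abundant mRNA. It was at 373, 495 and 367 TPM in A-MSCs, at 57.3, 60.6 and 70.6 TPM in P-MSCs, and at 530, 637 and 9.85 TPM in fBM-MSCs. The vBM-MSCs were above all other libraries and the P-MSCs below all but 1. That library, fBM-MSC replicate 3, was 64.7-fold below replicate 2, had the lowest Igfbp2 of all 11, and had the highest osteoblast marker sum and the lowest Cd34 of the fBM-MSCs (10.2 TPM). P-MSCs, low in Igfbp2, were also lowest in Fabp4 (2.68 to 3.84 TPM). The part of these marker differences was not tested. Bone marrow MSCs were higher by a log2 fold change of 2.77 ± 0.67 (adjusted p = 0.00509), or 3.06 without fBM-MSC replicate 3 (adjusted p = 3.05e-07). The call did not pass by limma-trend on log2(TPM + 1) (2.04, adjusted p = 0.0670).

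Among tissue pairs, vBM-MSCs exceeded P-MSCs in Igfbp2 in all 11 fits that left out 1 library (5.70 ± 1.08, adjusted p = 0.00162). With all libraries, vBM-MSCs minus A-MSCs was 2.78 ± 0.97 (adjusted p = 0.0550) and fBM-MSCs minus vBM-MSCs −2.94 ± 0.97 (adjusted p = 0.0701). Without fBM-MSC replicate 3 both passed, at 2.79 (adjusted p = 2.12e-05) and −2.36 (adjusted p = 0.000476). Both also passed with all libraries without a filter on low counts (adjusted p = 0.0271 and 0.0343), the first by DESeq2 (adjusted p = 0.0476) and the second by limma-trend on log2(TPM + 1) (−4.21, adjusted p = 0.0447). A-MSCs exceeded P-MSCs by 2.91 ± 0.93 (adjusted p = 0.0332) and fBM-MSCs did by 2.76 ± 0.92 (adjusted p = 0.0278). Without any one library of the A-MSCs or P-MSCs the first of these ended (adjusted p up to 0.0999), and without any one P-MSC library or fBM-MSC replicate 1 or 2 the second did (adjusted p up to 0.0834). By limma-trend on log2(TPM + 1) neither passed (adjusted p = 0.0870 and 0.370, with 1.28 for fBM-MSCs minus P-MSCs). A-MSCs and fBM-MSCs did not differ past the threshold (−0.15 for fBM-MSCs minus A-MSCs, 95% interval −2.04 to 1.73).

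Igfbp2 (1:72824480-72852474, plus strand) and Igfbp5 (1:72858065-72874865, minus strand) are neighbours on chromosome 1, with 5590 bases between them. Each gene had 5 sites in it or within 20 kb, and 4 of these were the same sites. Within an intron of Igfbp2, 14.3 kb after the nearest start, lay a site at 21.3-fold in vBM-MSCs, 13.6-fold in fBM-MSCs and 8.46-fold in A-MSCs, and P-MSCs had no listed summit there. vBM-MSCs, the tissue with the highest Igfbp2 mRNA, had the highest value at this site, and P-MSCs, with the lowest mean mRNA, had none. With 4 pooled lists this is a description and no test was made. The promoter, in contrast, only just passed in vBM-MSCs and A-MSCs, at 5.52-fold in both, while P-MSCs had a weaker summit of 4.78-fold there and fBM-MSCs none listed. The intronic site (AP-1 and RUNX letters in capitals) and the promoter (RefSeq, GRCm38.p6, plus strand, GC box letters GGGCGG on either strand in capitals) are shown because they are the strongest site of the gene and its first start.
Igfbp2 intronic site, chr1:72839548-72839748: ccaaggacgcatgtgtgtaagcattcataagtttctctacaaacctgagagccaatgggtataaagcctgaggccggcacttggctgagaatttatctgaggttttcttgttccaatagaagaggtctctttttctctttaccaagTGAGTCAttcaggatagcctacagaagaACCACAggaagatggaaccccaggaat
Igfbp2 promoter, chr1:72824230-72824529: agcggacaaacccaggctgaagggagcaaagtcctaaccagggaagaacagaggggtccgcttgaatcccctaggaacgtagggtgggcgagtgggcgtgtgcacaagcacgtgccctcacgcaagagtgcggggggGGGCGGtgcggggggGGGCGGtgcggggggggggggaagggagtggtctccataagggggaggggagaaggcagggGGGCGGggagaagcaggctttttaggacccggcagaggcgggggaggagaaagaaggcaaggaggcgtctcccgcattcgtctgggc
The intronic site has 1 match to each of the AP-1 and RUNX letters, which do not overlap. The promoter has 3 GC boxes and 18 CpG dinucleotides, where 35.7% of 32851 promoters of this length have a GC box and the median promoter has 7 CpGs.

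**Figure D3:**
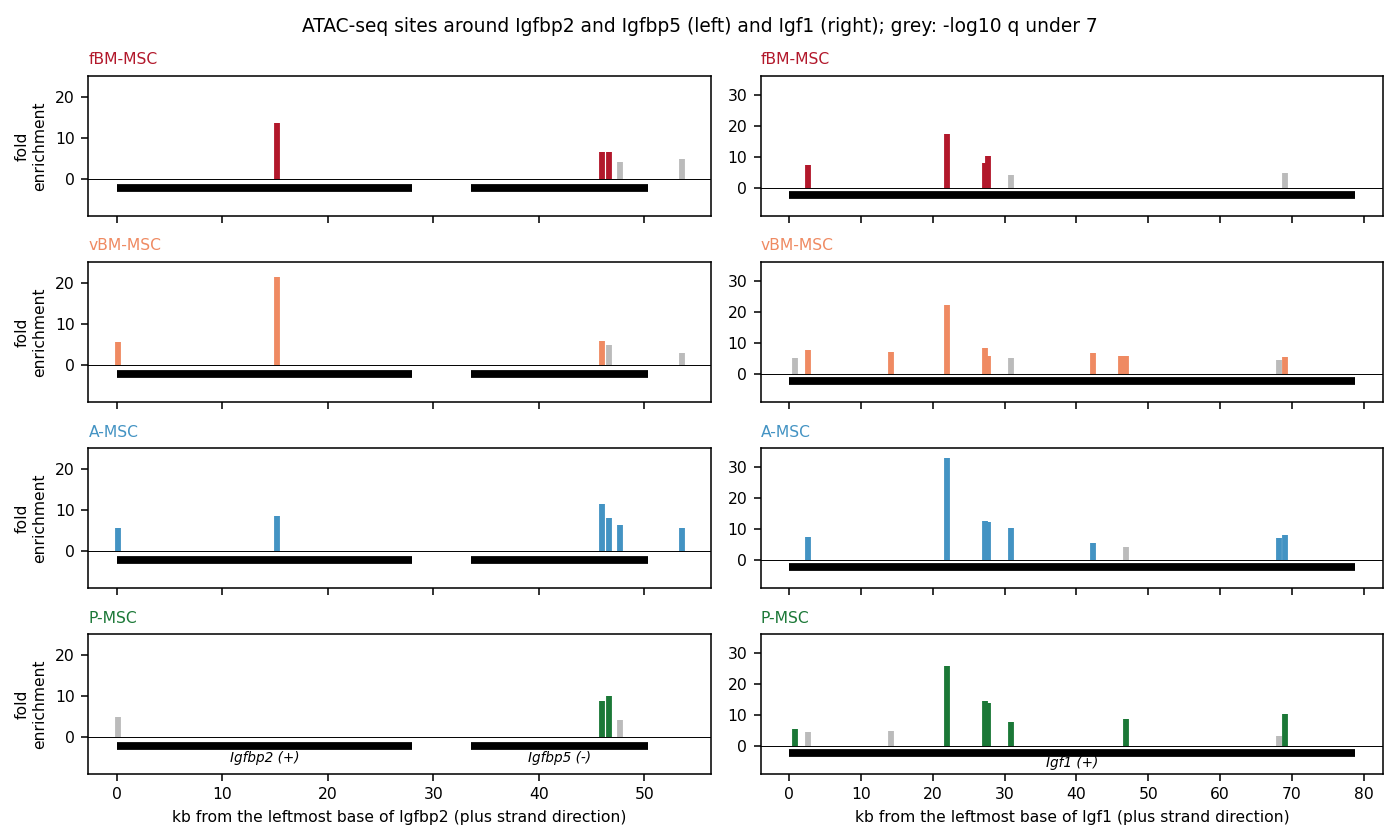
Accessible sites of Igfbp2 and Igfbp5 (left) and Igf1 (right) in the 4 pooled lists, with the distance along the plus strand from the leftmost base of Igfbp2 or Igf1 in kb on the x axis and the fold enrichment of the highest summit on the y axis. Coloured bars pass −log10 q of 7, grey bars do not, and thick black lines are the genes. The intronic Igfbp2 site is 21.3-fold in vBM-MSCs and has no bar in P-MSCs.

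Igfbp3, the main IGF carrier of the circulation, was highest in fBM-MSCs. It was at 19.4, 12.9 and 8.86 TPM in fBM-MSCs, 0.58 and 3.55 TPM in vBM-MSCs, 2.33, 8.31 and 4.39 TPM in A-MSCs, and 4.33, 5.56 and 4.05 TPM in P-MSCs. All 3 fBM-MSC libraries lay above all others, and the A-MSC range overlapped those of vBM-MSCs and P-MSCs. fBM-MSCs exceeded vBM-MSCs by a log2 fold change of 2.82 ± 0.69 (adjusted p = 0.0217), which did not pass without vBM-MSC replicate 1 (2.09, adjusted p = 0.113). fBM-MSCs also exceeded P-MSCs (1.69 ± 0.56, adjusted p = 0.0267), except without fBM-MSC replicate 1 or any one P-MSC library (adjusted p = 0.0533 to 0.0938) or by limma-trend on log2(TPM + 0.1) (adjusted p = 0.05004). Against A-MSCs the difference was 1.38 ± 0.55 (adjusted p = 0.0658), and it passed by DESeq2 (adjusted p = 0.0219), by limma-trend and without any of 4 libraries. Those were fBM-MSC replicate 3, both vBM-MSC libraries and A-MSC replicate 2 (adjusted p = 0.0233 to 0.0467). vBM-MSCs did not differ from A-MSCs or P-MSCs past the threshold, but were lower than both without vBM-MSC replicate 2 (−3.13, adjusted p = 0.0201, and −2.82, adjusted p = 0.0168), and lower than A-MSCs by DESeq2 (−1.47, adjusted p = 0.0490). Igf1 and Igfbp3 had opposite extremes in the bone marrow tissues, with vBM-MSCs highest in Igf1 and lowest on average in Igfbp3.

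The Igfbp3 promoter (11:7206086-7215498 for the gene, minus strand) passed in A-MSCs only, at 5.89-fold, at base −109 from the start. fBM-MSCs, where the mRNA was highest, had no summit past the threshold within 1 kb of the start. They had a weaker summit of 4.78-fold at a site 247 bases after it, where A-MSCs passed at 5.52-fold. All 5 sites in or near Igfbp3 passed in 1 tissue only, some of them narrowly. An intronic site passed in vBM-MSCs at 5.52-fold, against 5.15-fold in fBM-MSCs and 4.78-fold in both A-MSCs and P-MSCs.

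Igfbp4, an inhibitory IGFBP that pregnancy-associated plasma protein A cleaves, was higher in bone marrow on average and highest in vBM-MSCs. It was at 602 and 332 TPM in vBM-MSCs, 203, 107 and 147 TPM in fBM-MSCs, 60.95, 91.4 and 150 TPM in A-MSCs, and 77.4, 55.2 and 65.0 TPM in P-MSCs. vBM-MSCs were above all others, and the fBM-MSC and A-MSC ranges overlapped, as did those of A-MSCs and P-MSCs. The bone marrow difference was a log2 fold change of 1.73 ± 0.27 (adjusted p = 0.000288) and passed in every alternative fit, with 1.43 as its lowest value. vBM-MSCs exceeded A-MSCs (2.12 ± 0.40, adjusted p = 0.00291) and P-MSCs (2.94 ± 0.41, adjusted p = 0.000205). They exceeded fBM-MSCs (−1.60 ± 0.39 for fBM-MSCs minus vBM-MSCs, adjusted p = 0.0229), but not without vBM-MSC replicate 1 or fBM-MSC replicate 2 (adjusted p = 0.237 and 0.0721). fBM-MSCs also exceeded P-MSCs (1.34 ± 0.36, adjusted p = 0.0100). They did not differ from A-MSCs past the threshold (adjusted p = 0.261), with sizes of 0.24 to 0.95 when 1 library was left out. A-MSCs and P-MSCs did not differ either (adjusted p = 0.109). No list had a summit past the threshold within 1 kb of the curated start of Igfbp4 (gene at 11:99040005-99052655, plus strand). A site at −1.22 kb passed in A-MSCs (9.57-fold) and P-MSCs (6.62-fold), while vBM-MSCs had a weaker summit of 4.05-fold and fBM-MSCs had none listed.

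Igfbp5, which is abundant in mature bone matrix, was scarce in culture, yet its bone marrow difference was the largest of the 9 tested genes in the count-based fit. Its level was 0.56, 0.54 and 1.44 TPM in fBM-MSCs (43, 68 and 213 counts) and 0.39 and 0.74 TPM in vBM-MSCs (45 and 103 counts). In P-MSCs it was 0.07, 0.18 and 0.19 TPM (12, 23 and 26 counts), and in A-MSCs 4, 1 and 0 counts were listed. Its 5 bone marrow libraries, at 0.39 to 1.44 TPM, lay above its 6 non-bone marrow libraries, at 0 to 0.19 TPM, all low levels. How many of all genes separate in this way was not counted. Igfbp5 reached the filter of 1 CPM only in bone marrow libraries, the group where it was higher, so filter and call are not independent. Bone marrow MSCs were higher by a log2 fold change of 3.97 ± 0.65 (adjusted p = 0.000391). The call was made in every alternative fit, while on the log2(TPM + 1) scale, on which low levels differ little, the size was 0.64, below those of Igfbp2 (2.04), Igfbp4 (1.70) and Igfbp7 (1.11). fBM-MSCs exceeded A-MSCs by 5.96 ± 0.99 (adjusted p = 0.000710) and vBM-MSCs did by 5.31 ± 1.01 (adjusted p = 0.00321), sizes that rest on 5 counts in all A-MSCs. The 2 bone marrow tissues did not differ past the threshold (0.65, 95% interval −1.20 to 2.5). fBM-MSCs exceeded P-MSCs (2.64 ± 0.80, adjusted p = 0.0175), though not without fBM-MSC replicate 3 or P-MSC replicate 1 (adjusted p = 0.0773 and 0.0660). A-MSCs were below P-MSCs (−3.32 ± 0.95, adjusted p = 0.0214), though not without A-MSC replicate 2 or 3 or P-MSC replicate 2 or 3 (adjusted p up to 0.0712), nor by limma-trend on log2(TPM + 1) (−0.18, adjusted p = 0.482) or log2(TPM + 0.1) (−1.09, adjusted p = 0.0939). vBM-MSCs minus P-MSCs did not pass (1.99 ± 0.84, adjusted p = 0.0819), except by DESeq2 (adjusted p = 0.0374). The library with the most Igfbp5, fBM-MSC replicate 3, also had the highest osteoblast marker sum. No list had a summit past the threshold within 1 kb of its start, including those of the bone marrow MSCs.

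Igfbp6, which prefers IGF2, followed Igfbp2 in fBM-MSC replicate 3. It was at 186, 161 and 7.25 TPM in fBM-MSCs, 214 and 173 TPM in vBM-MSCs, 190, 234 and 232 TPM in A-MSCs, and 59.0, 53.5 and 62.6 TPM in P-MSCs. Apart from fBM-MSC replicate 3, each library of the other tissues was above each P-MSC library, and Fabp4 was also lowest in P-MSCs. With all libraries, A-MSCs exceeded P-MSCs (2.11 ± 0.73, adjusted p = 0.0482), a call that ended in 9 of the 11 fits that left out 1 library (adjusted p = 0.0545 to 0.131). The exceptions were the fits without fBM-MSC replicate 1 and without replicate 3. It also ended by limma-trend on log2(TPM + 1) (adjusted p = 0.112) and with scaling by library size only (adjusted p = 0.0635). Without replicate 3, Igfbp6 differed among the 4 tissues (adjusted p = 6.36e-06), and P-MSCs were below fBM-MSCs (1.70, adjusted p = 1.33e-05), vBM-MSCs (1.83, adjusted p = 8.58e-06) and A-MSCs (2.11, adjusted p = 4.79e-06). It was then also higher in bone marrow (0.71, adjusted p = 0.000414). With all libraries the bone marrow contrast of Igfbp6 did not pass, and over all fits its size ranged from −0.06 to 0.71. Over the 11 libraries the Pearson correlation of Igfbp2 and Igfbp6 on the log2(TPM + 1) scale was 0.871, given as a description of libraries that share tissues.

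The region at bases −844 to −818 from the Igfbp6 start (gene at 15:102144186-102149512, plus strand) was open in all lists, at 11.04-fold in fBM-MSCs, 18.8-fold in vBM-MSCs, 19.5-fold in A-MSCs and 29.1-fold in P-MSCs. P-MSCs, with the lowest mRNA outside fBM-MSC replicate 3, had the highest value.

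Igfbp7, a secreted protein that binds IGFs weakly, was the most abundant member in 9 of the 11 libraries. It was at 1492, 1840 and 1899 TPM in fBM-MSCs, 953 and 1942 TPM in vBM-MSCs, 844, 1051 and 864 TPM in P-MSCs, and 520, 630 and 508 TPM in A-MSCs. The exceptions were the vBM-MSC libraries, where Igfbp2 was higher. All A-MSC libraries lay below all others, and only vBM-MSC replicate 1 of the bone marrow libraries lay within the P-MSC range. The bone marrow difference was a log2 fold change of 1.14 ± 0.14 (adjusted p = 4.19e-05) and passed in every alternative fit. The macrophage and haematopoietic sum was 24.4 to 52.1 TPM in bone marrow and at most 27.1 TPM elsewhere, with 3 and 4 of its 6 genes at 1 TPM or more, and its part was not tested. fBM-MSCs exceeded A-MSCs (1.58 ± 0.19, adjusted p = 7.15e-05) and P-MSCs (1.05 ± 0.18, adjusted p = 0.000658), and vBM-MSCs exceeded A-MSCs (1.23 ± 0.20, adjusted p = 0.00128). The excess of vBM-MSCs over P-MSCs (0.70 ± 0.20, adjusted p = 0.0159) ended without vBM-MSC replicate 2 (0.25, adjusted p = 0.269) or P-MSC replicate 1 or 3, by limma-trend (adjusted p = 0.0741 and 0.0765) and with scaling by library size only (adjusted p = 0.0654). The deficit of A-MSCs against P-MSCs (−0.53 ± 0.18, adjusted p = 0.0451) ended in 7 of 11 such fits (adjusted p up to 0.158), namely those without fBM-MSC replicate 2 or without any one A-MSC or P-MSC library. The tissues fBM-MSC and vBM-MSC did not differ past the threshold (0.34, 95% interval −0.10 to 0.79), except without vBM-MSC replicate 2 (0.80, adjusted p = 0.0139).

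The Igfbp7 promoter (gene at 5:77349240-77408045, minus strand) had the strongest promoter summit of the binding proteins in fBM-MSCs, vBM-MSCs and A-MSCs. It was at 21.3-fold in fBM-MSCs, 20.2-fold in vBM-MSCs, 24.7-fold in A-MSCs and 21.3-fold in P-MSCs, between 83 and 105 bases after the start, above 65.6 to 77.2% of all promoters with a summit. A-MSCs, lowest in mRNA, had the highest value. The gene overlaps Polr2b and Gm34648, which lie on the other strand, and without strand reads in the overlap cannot be told apart. Its promoter, the start with the strongest summit among the binding proteins in 3 of the 4 lists, is given on the minus strand (RefSeq, GRCm38.p6) with GC boxes in capitals, of which it has 4, along with 33 CpGs.
Igfbp7 promoter, chr5:77407996-77408295: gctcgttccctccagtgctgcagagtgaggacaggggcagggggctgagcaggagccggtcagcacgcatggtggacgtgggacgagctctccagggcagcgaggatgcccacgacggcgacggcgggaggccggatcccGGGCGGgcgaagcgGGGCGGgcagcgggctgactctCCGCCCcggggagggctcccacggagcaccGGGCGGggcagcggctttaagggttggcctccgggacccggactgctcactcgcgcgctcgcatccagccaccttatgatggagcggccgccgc

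**Figure D4:**
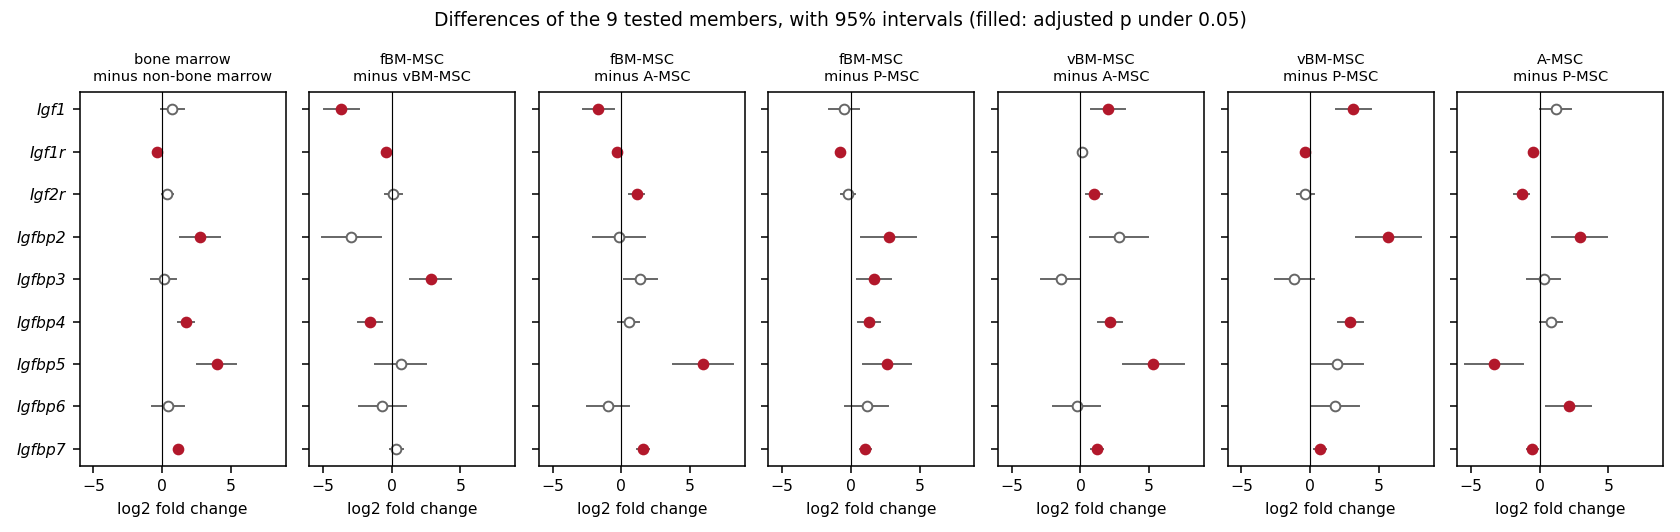
Log2 fold changes (x axis) of the 9 tested genes (y axis) in the bone marrow contrast and the 6 pairs of tissues, with 95% intervals of the edgeR fit. Filled points have an adjusted p under 0.05, and Igfbp5 in fBM-MSCs minus A-MSCs is the largest at 5.96.

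Over genes and pairs of tissues, 31 calls were made. fBM-MSCs minus A-MSCs gave 5 of 9 (40.9% of all genes), fBM-MSCs minus P-MSCs 6 of 9 (47.7%), vBM-MSCs minus A-MSCs 5 of 9 (25.6%), vBM-MSCs minus P-MSCs 5 of 9 (38.7%) and A-MSCs minus P-MSCs 6 of 9 (30.9%). All 5 genes called in vBM-MSCs minus A-MSCs were higher in vBM-MSCs.

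Within 1 kb of a curated start, 5 of the 10 genes had a summit past the threshold in fBM-MSCs (50.7% of 24963 genes did). In vBM-MSCs 6 did (51.6% of all), in A-MSCs 7 (52.6%) and in P-MSCs 5 (51.7%). Igf1, Igf1r, Igfbp6 and Igfbp7 had one in every tissue, and Igfbp4 and Igfbp5 in none. In and around the 10 genes lay 99 sites, of which 32 (32.3%) passed in 1 tissue only and 33 (33.3%) in all 4, against 37.0% and 30.2% of all sites. Of the 99, 65 were intronic and 15 within 1 kb of a start.

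The genes outside the 10 with the most similar levels over the 11 libraries were described by Pearson's r on the log2(TPM + 1) scale, which rests on 4 tissues and was searched over all tested genes. For Igf1 they were Fbln5, an elastic fibre gene, and Arf2 (r = 0.961 and 0.960). For Igf1r they were Slc25a3 and Bend3 (0.970 and 0.970), and for Igf2r Chst7 and Cast (0.945 and 0.939). For Igfbp2 they were Tmsb15l and Jup (0.954 and 0.953), and for Igfbp3 Abcc4 and Dym (0.928 and 0.915). For Igfbp4 they were Fibcd1 and Fbln7 (0.962 and 0.950), and for Igfbp5 Trps1 and Anks3 (0.966 and 0.965). Mfap5, a microfibril gene, and Ywhag were nearest to Igfbp6 (0.984 and 0.982), and Robo2 and Man2b1 to Igfbp7 (0.987 and 0.983), of which Robo2 was at most at 0.33 TPM. Among the members themselves, Igfbp5 and Igfbp7 were at 0.889 and Igf1 and Igfbp3 at −0.735.

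Of 77 other genes of the pathway, 69 were tested and 47 (68.1%) differed among the 4 tissues, against 60.6% of all genes. In the bone marrow contrast, 21 of 69 were higher and 16 lower (median log2 fold change 0.06). Among all genes, 24.8% were higher and 22.4% lower, or 47.2% in either direction, and the counts of each list below stand against these shares. Among partners and proteases of the binding proteins, 6 of 9 tested genes passed (47.2% of all genes did), 4 higher and 2 lower. Pappa2, a protease of Igfbp5, was higher in bone marrow (4.49 ± 0.79, adjusted p = 0.000658) but no tissue averaged above 0.62 TPM. Pappa, the Igfbp4 protease, averaged 1.16, 3.03, 2.03 and 0.667 TPM in fBM-MSCs, vBM-MSCs, A-MSCs and P-MSCs and was higher in bone marrow (0.69 ± 0.19, adjusted p = 0.0117). Against A-MSCs, however, fBM-MSCs were lower (−0.88, adjusted p = 0.0188) and vBM-MSCs did not differ past the threshold (adjusted p = 0.266). Ctsd, the lysosomal protease cathepsin D and a ligand of Igf2r, was higher (1.91 ± 0.16, adjusted p = 3.12e-06) at 3645 and 1962 TPM in the bone marrow tissues against 575 and 870 TPM in A-MSCs and P-MSCs. Adam12, a metalloprotease that cleaves Igfbp3 and Igfbp5, was lower (−2.69 ± 0.21, adjusted p = 1.89e-06). Igfbp1, mainly a liver gene, was at 0 in all libraries, which allows 0.0740 to 0.153 CPM (counts scaled by library total).

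Of other receptors, Lrp1, an endocytic receptor, was higher (0.78 ± 0.18, adjusted p = 0.00421), and the insulin receptor Insr averaged 1.06 to 1.35 TPM and did not pass (0.09 ± 0.20, adjusted p = 0.753). In the growth hormone axis, 3 of 5 genes passed, where 47.2% of all genes did. Socs2, which limits growth hormone signalling, was higher (1.15 ± 0.17, adjusted p = 0.000165), as was the transcription factor Stat5a (1.01 ± 0.22, adjusted p = 0.00261), and the kinase Jak2 was lower (−0.77 ± 0.22, adjusted p = 0.0141). The growth hormone receptor itself did not pass (0.23 ± 0.20, adjusted p = 0.356).

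Downstream of Igf1r, the adaptor Irs1 was higher in bone marrow (1.14 ± 0.15, adjusted p = 9.48e-05). Grb10, an adaptor that restrains receptor signalling, was lower (−1.30 ± 0.13, adjusted p = 1.48e-05), at 28.3 TPM in fBM-MSCs, 72.7 TPM in vBM-MSCs, 99.6 TPM in A-MSCs and 126 TPM in P-MSCs. The related Grb14 was narrowly lower (−0.57 ± 0.22, adjusted p = 0.0475). Of the fits that left out an fBM-MSC, A-MSC or P-MSC library, this call held only without fBM-MSC replicate 3 (adjusted p up to 0.103 in the others). Without vBM-MSC replicate 1 or 2 the size was −0.56 or −0.58. The call also ended with the replicate number as a block (adjusted p = 0.0596). In the PI3K-Akt branch, 10 of 21 tested genes passed, a share near the 47.2% of all genes, 8 of them higher and 2 lower, with Foxo1 higher (1.92 ± 0.30, adjusted p = 0.000266) and Pik3cb lower (−0.94 ± 0.28, adjusted p = 0.0170). The last did not pass without vBM-MSC replicate 2 (−0.70, adjusted p = 0.0663). In the Ras-MAPK branch 5 of 10 passed, again near the 47.2% of all genes, of which 4 were lower by small amounts, such as Map2k1 (−0.43 ± 0.09, adjusted p = 0.00164) and Nras (−0.40 ± 0.08, adjusted p = 0.000994).

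Among regulators of Igf2, the RNA-binding protein genes Igf2bp1 (−3.13 ± 0.27, adjusted p = 4.31e-06) and Igf2bp2 (−1.27 ± 0.21, adjusted p = 0.000397) were lower in bone marrow, with Igf2bp1 at 4.21 TPM in P-MSCs and at most 0.607 TPM on average elsewhere. P-MSCs, in which Igf2 was not detected, thus had the most Igf2bp1. The imprinted transcription factor Plagl1 was higher (1.22 ± 0.34, adjusted p = 0.0120), with means of 8.85 TPM in vBM-MSCs, 3.55 TPM in P-MSCs, 3.01 TPM in fBM-MSCs and 1.38 TPM in A-MSCs, so that fBM-MSCs averaged below P-MSCs. Among genes of mannose 6-phosphate sorting, which tags the cargo of Igf2r, Gnptg (1.43 ± 0.16, adjusted p = 2.65e-05) and Nagpa (0.55 ± 0.18, adjusted p = 0.0250) were higher and M6pr, the other mannose 6-phosphate receptor, lower (−0.26 ± 0.09, adjusted p = 0.0277). M6pr averaged 160.0 TPM in A-MSCs and 104 to 122 TPM in the other tissues, with vBM-MSCs above P-MSCs, and Nagpa averaged 19.97 TPM in vBM-MSCs, below the 20.8 TPM of P-MSCs. Nagpa did not pass without vBM-MSC replicate 2, A-MSC replicate 2 or P-MSC replicate 1 or 3 (adjusted p up to 0.125), nor M6pr without vBM-MSC replicate 2, A-MSC replicate 3 or P-MSC replicate 3 (adjusted p up to 0.112).

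**Figure D5:**
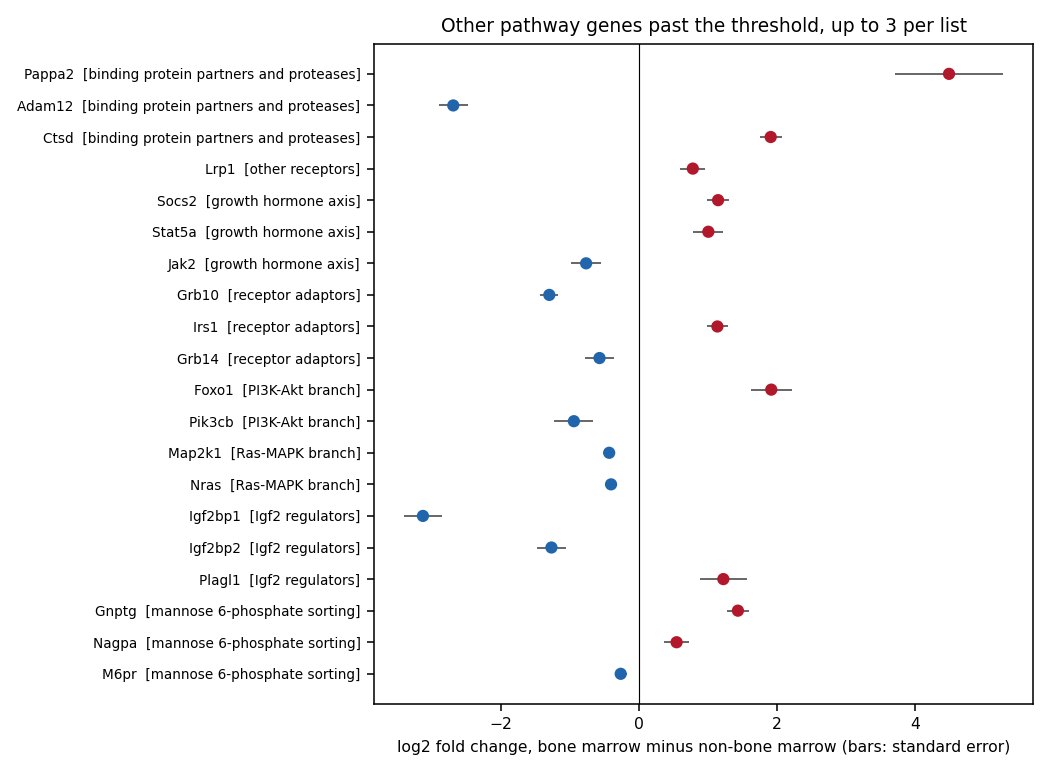
Log2 fold changes of bone marrow minus non-bone marrow MSCs (x axis) for other pathway genes past the threshold, up to 3 per list (y axis, list in brackets), with standard errors. Pappa2 is highest at 4.49 and Igf2bp1 lowest at −3.13.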

How the data were processed

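RNA-seq and ATAC-seq values of cultured mouse MSCs were taken as deposited, without the reads. The authors prepared Smart-seq2 libraries, which do not mark strand and carry no molecular identifiers, and quantified them with RSEM and STAR on mm10. The expected counts deposited for each gene are RSEM's estimates and were rounded to whole numbers here. The authors' TPM and FPKM values are scaled by RSEM for effective length. The submitters' processing notes name RSEM, Trim Galore, Bowtie, Picard, bedtools and MACS2, with versions not given in the sources used here. The deposited peak lists give each summit's fold enrichment, a ratio over the genome-wide background, and its −log10 q from the authors' pooled reads, so ATAC-seq values have no replicate error and no test.

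Genes with a CPM of 1 or more in 2 or more libraries (12509) were fitted over 11 libraries with edgeR 4.0.16 (R 4.3.3), TMM scaling, tissue as the only term, a quasi-likelihood F test and Benjamini-Hochberg adjustment over all of them, at 0.05. The bone marrow contrast was the mean of fBM-MSCs and vBM-MSCs minus that of A-MSCs and P-MSCs. Replicate numbers come from the sample titles. Tests treat libraries as independent although tissues share mice, so p-values measure the spread between these libraries. DESeq2 1.42.0 and limma 3.58.1 were alternatives, and the procedures were tested on simulated data. Depth was 19569650 to 40517739 expected counts per library, and limits from counts of 0 cover counting error only. Summits with −log10 q of at least 7 were assigned within 1 kb of curated RefSeq starts on GRCm38.p6, the assembly behind mm10. Promoters run from 250 bases before to 50 after a start. The 10 genes and all gene lists were chosen with earlier results of these data known. Of other pathway genes, those past the threshold in the bone marrow contrast with the largest absolute change were named, up to 3 per list, plus Igfbp1, Insr, H19 and Pappa. Some genes that this rule names are not reported here. For each member, the 2 most similar genes by Pearson's r were named. Ghr, the H19 counts and single marker genes were added after their values were seen.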

Additional observations from a re-analysis of the deposited data

How the results depend on the processing

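The count of the 9 tested genes that differed among tissues was 8 with all libraries and 8 to 9 over all alternatives. The count higher in bone marrow was 4, with 4 to 6 when 1 library was left out and 3 to 5 otherwise, and the count lower was 1 throughout. The 5 came from the fit without a filter on low counts and includes Igf2, which is not among the 9. Calls over genes and tissue pairs numbered 31, with 22 to 34 when 1 library was left out and 23 to 35 otherwise. Of the other pathway genes, 47 differed among tissues, and 39 to 48 did over all alternatives. Without 1 of the 2 vBM-MSC libraries, the remaining one was assumed to vary like the other tissues. With the replicate number as a block, these 5 counts were 8, 4, 1, 28 and 46. Of the pair calls of the members, those that the block ended were P-MSCs against fBM-MSCs and A-MSCs in Igfbp2 (adjusted p = 0.0976 and 0.0506), vBM-MSCs in Igf1r (0.0552) and A-MSCs in Igfbp6 (0.0622), and the call it added was fBM-MSCs minus A-MSCs in Igfbp3 (0.0391). Among the named pathway genes, it ended the bone marrow call of Grb14 (adjusted p = 0.0596). Deviations of same-numbered libraries correlated at −0.03 to 0.13 over 15 pairs, and those of different-numbered libraries at −0.125 to 0.109. These values cannot tell whether a number marks a mouse. No source ties numbers to mice, so the block is given as an alternative only. Without a filter on low counts, Igf2 was higher in bone marrow (6.02, adjusted p = 0.00354), a size set by counts of 0. With −log10 q of at least 20, 3 members had a promoter summit in each tissue (35.1 to 39.8% of all genes). Within 500 bases of a start 3 had one in both fBM-MSCs and P-MSCs and 5 in both other tissues (48.4 to 50.3% of all genes). As a share of expected counts, which are not per length, Igfbp7 was 75.2% in P-MSCs and 35.7% in A-MSCs. The depth of the ATAC-seq libraries is unknown from the lists, and summits near 5.5-fold lie at the threshold, so a missing call there is not evidence of closed chromatin.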
